A study of Mus musculus with 9 samples.

Results

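The 8 genes described here are Hmgcs1, Fdps, Fdft1, Sqle, Lss, Cyp51, Insig1 and Srebf2: 6 enzymes of cholesterol synthesis, a regulator that restrains the pathway and the transcription factor gene that drives it. They were chosen by symbol, as all probe sets that the platform annotation gives to exactly 1 of these genes, and the 8 symbols were picked with earlier results of the same group comparisons in view. That choice took in 21 of the 45101 probe sets on the array. One probe set stood for each gene, so that the set made up 8 of the 13320 genes tested. The working name of the set also mentions cholesterol uptake, but none of the 8 genes encodes an uptake protein, and uptake genes are given separately further on. Because the same comparisons had a part in the choice, values, differences and intervals of the 8 genes are given as description and without p-values. Counts of those that passed limma's threshold stand beside the share over all genes, and nothing is read from them.

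RNA was read on 9 Affymetrix 3-prime arrays, 3 in each of 3 mouse groups whose samples the labels call independent biological repeats. Both groups of embryonic stem cell-derived retinal progenitor cells (ESC-RPCs) came from 1 line, the 46C embryonic stem cells, made by gene targeting in E14Tg2a.IV cells. All of these cells had spent 3 days as embryoid bodies in serum-free medium with SB431542, an inhibitor of the activin receptor-like kinases that carry Nodal signals. They were then plated on Matrigel in medium free of retinoic acid and sorted at day 7 for Sox1, which marked 35.8% of cells. The sorted cells went on in N2 medium with 20 ng/ml bFGF, a fibroblast growth factor, and 10 µM DAPT, which blocks cleavage of Notch. The DKK1-treated group then received 1 ng/ml recombinant DKK1, a secreted antagonist of Wnt signalling, for 1 day, and the untreated group did not. The third group, primary retinal progenitor cells (primary RPCs), was prepared from the dissociated neural retina of newborn C57 mice, on postnatal day 1, and is called cultured in its source name. The study took untreated cells as the early stage, DKK1-treated cells as the later stage, and primary cells as the negative control for proliferation and oncogenesis. Cell origin, culture and mouse strain all differ between ESC-RPCs and primary RPCs and cannot be told apart here.

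Cells make cholesterol from acetyl-CoA through mevalonate, farnesyl diphosphate, squalene and lanosterol. The pathway is controlled by SREBP2, the product of Srebf2. When sterols are plentiful, INSIG proteins hold SREBP2 and its escort SCAP in the endoplasmic reticulum. When sterols are scarce, SREBP2 travels to the Golgi, is cut there, and enters the nucleus, where it switches on the synthesis and uptake genes together with Insig1 and Srebf2 itself. In the retina, cholesterol comes both from local synthesis and from lipoproteins.

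SREBP2 binds sterol regulatory elements in promoters, usually beside NF-Y and Sp1, which bind CCAAT and GC boxes. Promoter windows of 300 bases, 250 before and 50 after the annotated transcript start, were taken from RefSeq (GRCm38.p6). They matched 5 of the 8 genes, namely Hmgcs1, Lss, Cyp51, Insig1 and Srebf2, while Sqle, Fdps and Fdft1 had no match. Matches were searched on both strands for a sterol regulatory element (TCACNCCAC), a CCAAT box (CCAAT), an E-box (CACGTG) and a GC box (GGGCGG). Below are 3 of the windows, 1 for an enzyme, 1 for the restraining regulator and 1 for the transcription factor gene, each read 5′ to 3′ on the gene's plus strand. Capitals mark all matches, with reverse-strand matches appearing as their reverse complement (ATTGG and CCGCCC).
Hmgcs1 promoter, chr13:119690101-119690400, plus strand: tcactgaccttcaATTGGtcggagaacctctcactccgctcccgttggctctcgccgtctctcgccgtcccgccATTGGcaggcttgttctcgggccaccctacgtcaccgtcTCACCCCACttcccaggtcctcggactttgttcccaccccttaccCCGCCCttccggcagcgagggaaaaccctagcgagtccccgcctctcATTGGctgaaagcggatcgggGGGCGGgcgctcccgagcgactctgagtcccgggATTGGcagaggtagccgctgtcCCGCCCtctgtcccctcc
Insig1 promoter, chr5:28071162-28071461, plus strand: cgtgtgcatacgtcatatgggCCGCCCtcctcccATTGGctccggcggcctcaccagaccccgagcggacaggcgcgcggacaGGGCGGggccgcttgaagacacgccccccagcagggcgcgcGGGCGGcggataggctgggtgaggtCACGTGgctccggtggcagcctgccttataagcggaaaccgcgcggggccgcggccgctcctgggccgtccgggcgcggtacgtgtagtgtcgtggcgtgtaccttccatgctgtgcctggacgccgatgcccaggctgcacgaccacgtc
Srebf2 promoter, chr15:82147019-82147318, plus strand: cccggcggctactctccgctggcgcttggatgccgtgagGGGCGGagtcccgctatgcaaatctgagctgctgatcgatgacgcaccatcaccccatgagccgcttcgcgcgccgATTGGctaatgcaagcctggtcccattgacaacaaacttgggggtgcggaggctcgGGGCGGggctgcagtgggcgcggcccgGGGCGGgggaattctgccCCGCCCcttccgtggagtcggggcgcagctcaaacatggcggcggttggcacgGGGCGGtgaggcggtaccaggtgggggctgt

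The Hmgcs1 window held the only sterol regulatory element match among the 5 genes, TCACCCCAC, starting 137 bases before the transcript start. It lay between CCAAT boxes that start 176 and 45 bases before the start. Such a match occurred in 1.24% of the 32851 windows in the RefSeq table, and among 58 matched genes of the pathway lists described below it occurred only in Stard3. All 5 windows held a CCAAT box, found in 37.4% of all windows, and a GC box, found in 35.7%. Hmgcs1 held 4 CCAAT boxes and the other windows 1 each, which started 29 bases before the transcript start in Cyp51, 62 in Lss, 135 in Srebf2 and 216 in Insig1. Insig1 alone held an E-box, 101 bases before the start, against 7.15% of all windows. No matches overlapped each other in these windows. These are exact letter matches and not measured binding sites. Near matches were not searched, and the windows do not cover elements outside them.

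**Figure D1:**
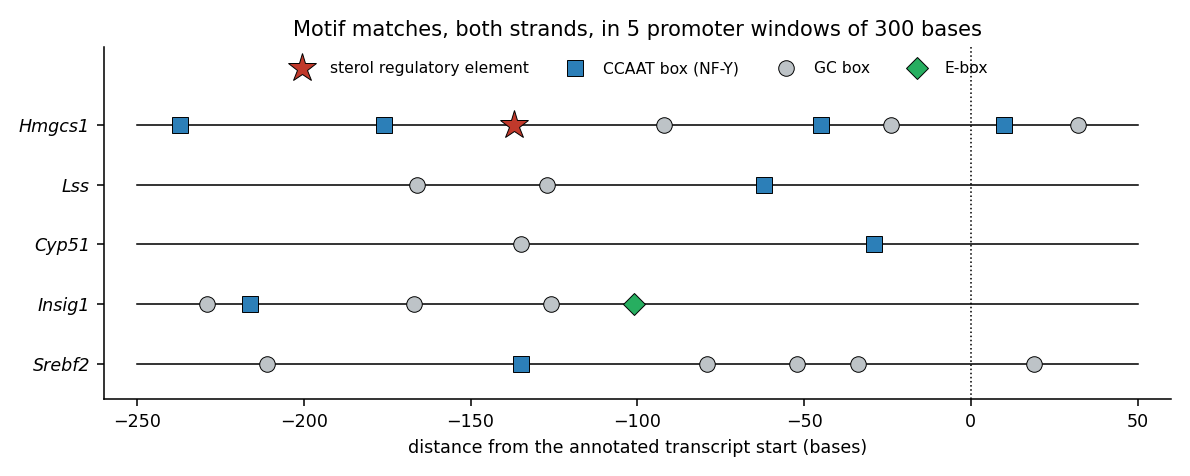
Positions of motif matches in the promoter windows of 5 genes, with distance from the annotated transcript start in bases on the horizontal axis and 1 line per gene. The star is the sterol regulatory element match 137 bases before the Hmgcs1 start, squares are CCAAT boxes, circles GC boxes and the diamond the E-box 101 bases before the Insig1 start.

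Arrays of 1 group correlated at 0.964 or more across genes, DKK1-treated with untreated arrays at 0.975 to 0.985, and ESC-RPC with primary arrays at 0.825 to 0.836. Of 7 measured retinal progenitor markers, 5 were lower and 2 higher in untreated ESC-RPCs than in primary RPCs (limma, adjusted p below 0.05), with summed intensities of 17467 to 18417 against 35447 to 42148. Rax lay below the 40th percentile of its array on all DKK1-treated arrays. All 8 pluripotency markers were higher in untreated ESC-RPCs, at sums of 18269 to 22298 against 437 to 769. Mesenchyme markers summed to 20568 to 24704 against 3491 to 4914 in primary cells, with 8 of 10 higher and 1 lower. The 8 astrocyte and radial glia markers summed to 43790 to 47765 against 14446 to 17049, with 7 of 7 tested markers higher. In the other direction, 5 of 5 tested photoreceptor markers were lower. The 6 photoreceptor markers on the array summed to 1365 to 1722 in untreated ESC-RPCs and 28572 to 40403 in primary cells. Crx, Nrl, Sag, Pdc and Rcvrn lay below the percentile in both ESC-RPC groups. Endothelial markers summed to 187 to 229 against 5374 to 7438, with 1 of 2 tested markers called lower and 0 higher. Of the 4 markers in this sum, Tek lay below the percentile in all 3 groups. The part of these cell types in the values that follow was not tested. In bulk RNA, fewer cells of a type and less RNA per cell cannot be told apart.

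In untreated ESC-RPCs all 8 genes were brighter than in primary RPCs, on every array of one group against every array of the other. The differences lay between 1.58-fold for Srebf2 and 3.94-fold for Fdps. Their median was 1.60 on the log2 scale, and the median over all 13320 genes was -0.00678. Groups that did not overlap, with the ESC-RPC arrays higher, were found for 29.5% of all genes. By limma at an adjusted p below 0.05, 8 of the 8 were called higher, where 26.1% of all genes were called in that direction and 53% in either. Intensities below are MAS5 values on a linear scale, and differences are log2 values with their standard errors (SE).

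**Figure D2:**
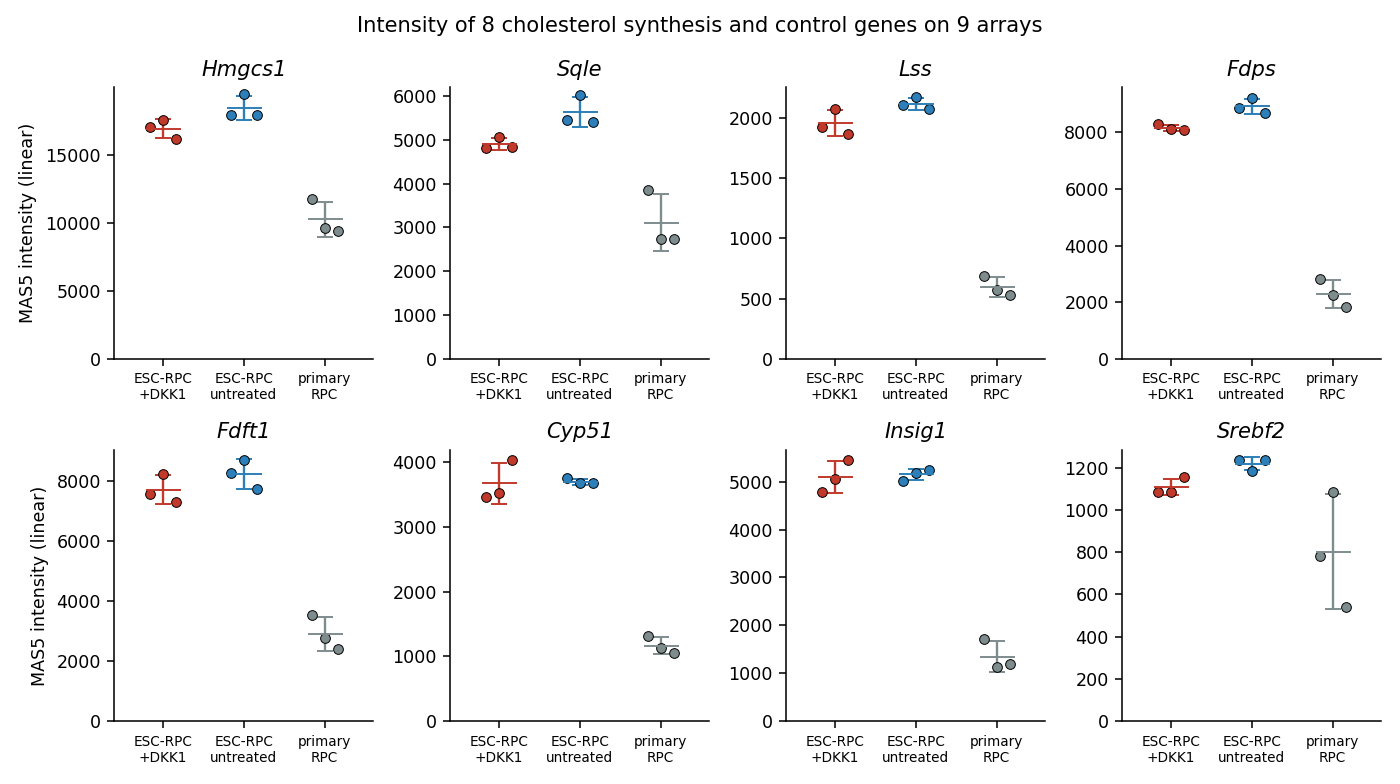
MAS5 intensity (linear axis from 0) of the 8 genes on each of 9 arrays, by group, with replicates 1 to 3 from left to right; the long line is the group mean and the bars are the SD. The 3 primary RPC arrays lie below all 6 ESC-RPC arrays in every panel, and in the Srebf2 panel primary replicate 2 reaches 1084 against a lowest ESC-RPC value of 1085.6.

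Hmgcs1 encodes the cytosolic synthase that builds HMG-CoA at the entry to the pathway. Its intensity was 17958, 19454 and 17953 in untreated ESC-RPCs and 11723, 9616 and 9394 in primary RPCs. The lowest untreated array was thus well above the highest primary array, replicate 1. The difference was 0.86 ± 0.08 (SE, n = 3 against 3), a fold of 1.81.

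Fdps makes farnesyl diphosphate, the branch point toward sterols, ubiquinone and protein prenylation. It measured 8853, 9224 and 8695 in untreated cells and 2821, 2239 and 1834 in primary cells. The difference of 1.98 ± 0.12 (SE, n = 3 against 3) was the largest of the 8, within the error of that of Insig1 given below. Fdft1, squalene synthase, commits farnesyl diphosphate to sterols. It measured 8246, 8692 and 7724 against 3520.4, 2755 and 2404, a difference of 1.52 ± 0.12 or 2.87-fold. In both genes primary replicate 1 was the highest primary array and replicate 3 the lowest.

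Sqle, the monooxygenase that turns squalene into its epoxide and a known control point, measured 5460.4, 6029 and 5409 in untreated cells and 3862, 2739 and 2739 in primary cells. Primary replicates 2 and 3 lay close together, and replicate 1 lay nearer to the ESC-RPC arrays. The difference was 0.87 ± 0.12, or 1.83-fold. Lss closes squalene epoxide into lanosterol, the first sterol. Its intensity was 2108, 2175 and 2078 against 687, 573 and 529, a difference of 1.84 ± 0.11 or 3.58-fold. Cyp51 removes a methyl group from lanosterol. It measured 3751, 3675 and 3671 against 1313, 1128 and 1058, a difference of 1.67 ± 0.10 or 3.19-fold. The untreated arrays of Cyp51 agreed to within a coefficient of variation of 1.21%, the smallest of any of the 8 genes in any group.

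Insig1, which retains the SCAP-SREBP complex in the endoplasmic reticulum and is itself an SREBP target, measured 5022, 5178 and 5248 in untreated cells and 1712, 1133 and 1198 in primary cells. The difference was 1.96 ± 0.13 or 3.89-fold. Srebf2 gave the smallest difference and the widest primary spread. It measured 1236, 1184 and 1235 in untreated cells against 779.9, 1084 and 542 in primary cells, a difference of 0.66 ± 0.20 with a 95% interval of 0.22 to 1.10. Here primary replicate 2 was the highest primary array, unlike in the other 7 genes, and replicate 3 was the lowest. Without primary replicate 3 the Srebf2 difference was 0.41.

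The other probe sets gave the same direction. Of the 21 probe sets, 18 passed the filter, which asked for a value above the array's 40th percentile (44.7 to 52.9 over the arrays) on at least 3 of 9 arrays. The 3 that did not pass were 1 of 2 probe sets of Fdps and 2 of 4 of Fdft1. All 18 were higher in untreated ESC-RPCs than in primary RPCs without overlap, by 0.50 to 2.19, where 27.5% of all kept probe sets of 1 gene were. Sizes differed within a gene. The 5 probe sets of Hmgcs1 gave 0.71 to 2.19, the 3 of Cyp51 gave 1.10 to 1.67, and the 3 of Lss gave 1.35 to 1.86. The value of 2.19 came from 1441536_at, the dimmest Hmgcs1 probe set, at 391 ± 27.3 in untreated and 91.5 ± 39.3 in primary cells (SD, n = 3). Hmgcs1 was also the gene whose value moved with scaling, to 0.67 with quantile normalisation.

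**Figure D3:**
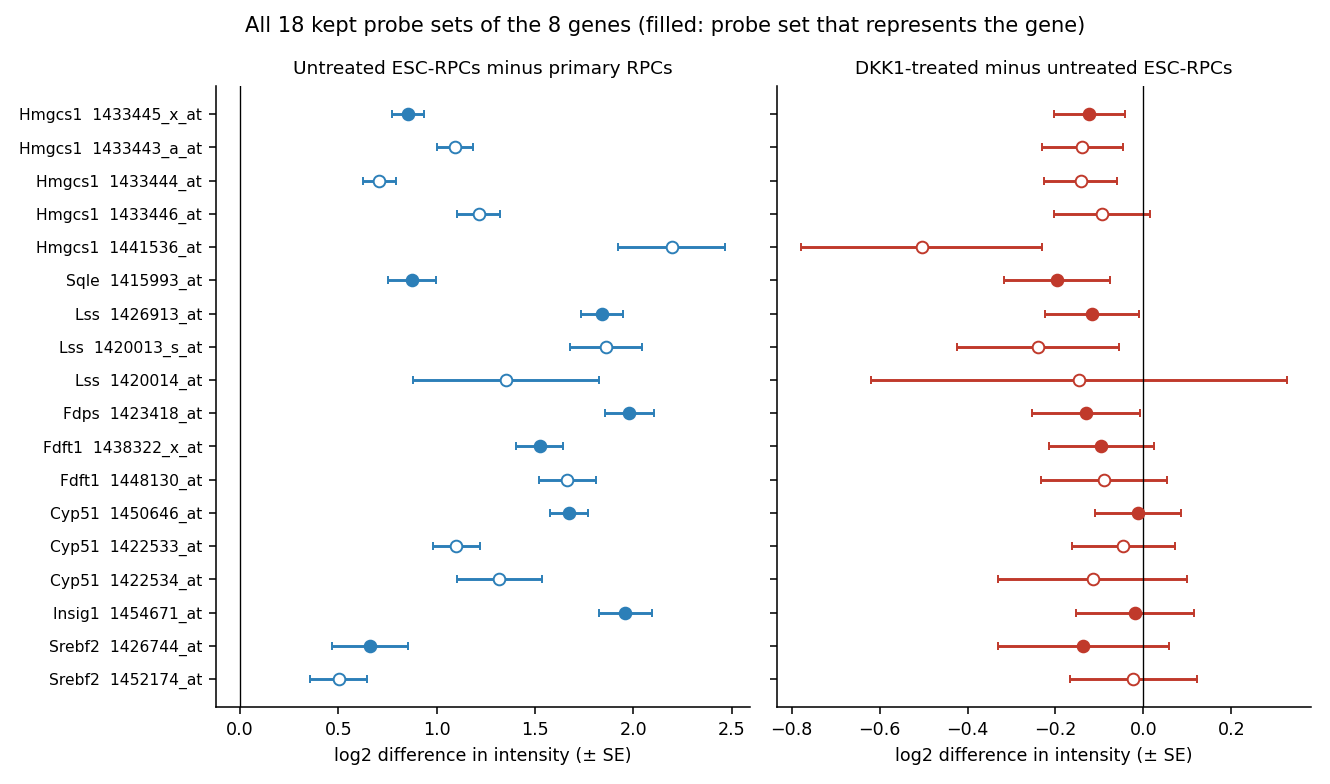
Log2 difference ± SE for each of the 18 kept probe sets, untreated ESC-RPCs minus primary RPCs on the left and DKK1-treated minus untreated ESC-RPCs on the right; filled points are the probe sets that stand for a gene. All points on the left lie above 0, from 0.50 to 2.19, and all points on the right lie below 0, from -0.50 to -0.01, with several error bars crossing 0.

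After 1 day of DKK1 the 8 genes had slightly lower mean intensities than in untreated ESC-RPCs, and the differences were small. They ranged from -0.20 for Sqle to -0.01 for Cyp51, with a median of -0.12, where the median of all genes was -0.00183 and 50.5% of genes had a lower mean. In limma's fit of 9 arrays 0 of the 8 were called at an adjusted p below 0.05, and so were 0% of the 13320 genes (308 at an unadjusted p below 0.05; smallest adjusted p = 0.976). For 5 of the 8, Hmgcs1, Sqle, Lss, Fdps and Srebf2, every DKK1-treated array lay below every untreated array, which held for 6.73% of all genes. The choice of the genes was made with this pattern known, so nothing is read from the count. Cycling-cell markers also had lower means after DKK1, 5 of 5, at sums of 17437 to 21791 against 20495 to 22531. Pluripotency markers had higher means, 8 of 8, at sums of 21158 to 23011 against 18269 to 22298. The part of either in these values was not tested.

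Sqle showed the largest difference. Its intensity was 4808, 5079 and 4847 after DKK1 against 5460.4, 6029 and 5409 without, a difference of -0.20 ± 0.12 with a 95% interval of -0.47 to 0.07. The highest treated array lay under the lowest untreated one. Fdps measured 8282, 8110.1 and 8070.3 after DKK1 against 8853, 9224 and 8695, a difference of -0.13 ± 0.12 (interval -0.40 to 0.15), again without overlap. Hmgcs1 measured 17057, 17576 and 16194 against 17958, 19454 and 17953, a difference of -0.12 ± 0.08 (interval -0.30 to 0.06). The Hmgcs1 difference was -0.05 with quantile normalisation and -0.20 as the mean of its probe sets. Lss measured 1930.0, 2078 and 1866 against 2108, 2175 and 2078, so that treated replicate 2 fell just short of untreated replicate 3. Its difference was -0.12 ± 0.11 (interval -0.35 to 0.12).

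Srebf2 measured 1086, 1085.6 and 1155 after DKK1 against 1236, 1184 and 1235, a difference of -0.14 ± 0.20 (interval -0.57 to 0.30), or -0.08 as the mean of its 2 probe sets. The fit pools the spread of all 3 groups, and Srebf2 varied most among the primary arrays. The groups overlapped for the remaining 3 genes. Fdft1 measured 7565, 8225 and 7297 against 8246, 8692 and 7724, a difference of -0.10 ± 0.12 (interval -0.36 to 0.17). Insig1 measured 4774, 5049 and 5442 against 5022, 5178 and 5248, and Cyp51 3461, 3524 and 4039.5 against 3751, 3675 and 3671. In both genes treated replicate 3 was the highest of the 6 arrays, while treated replicates 1 and 2 lay below 2 or more of the untreated arrays. The interval was -0.32 to 0.28 for Insig1 and -0.23 to 0.20 for Cyp51, so either direction lies within these intervals.

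The replicate numbers of the 2 ESC-RPC groups were taken to pair the arrays, since same-numbered arrays deviated together from their group means. Within these pairs 22 of 24 log2 differences of the 8 genes lay below 0. The exceptions were pair 3 of Cyp51, at 0.14, and pair 3 of Insig1, at 0.05. The other 6 genes were lower after DKK1 in all 3 pairs, as were 19% of all genes. The pair values of Sqle were -0.18, -0.25 and -0.16. With the replicate block on the 6 ESC-RPC arrays, 1 of the 8 genes, Sqle, passed the threshold, at its very edge, and 0.27% of all genes were called lower after DKK1. The 8 genes were picked with this comparison known, so the Sqle call is no test of it. The 95% intervals given above come from the fit of 9 arrays and ignore the pairing. With the block they were narrower, at -0.28 to -0.12 for Sqle, -0.19 to -0.06 for Hmgcs1 and -0.20 to -0.06 for Fdps, and included 0 for Cyp51 (-0.12 to 0.10) and Insig1 (-0.10 to 0.06) but not for the other 6 genes. These intervals are not adjusted for the number of genes, and the share of all genes whose interval excluded 0 is not given here. The genes were picked with this comparison known, and the pairing was taken from the same values. Nothing is therefore read from how many of these intervals excluded 0. All 18 kept probe sets had a lower mean log2 value after DKK1, and 7 did so without overlap, as did 6.18% of all kept probe sets of 1 gene. The largest of these differences, -0.50 ± 0.27, was that of the dim Hmgcs1 probe set 1441536_at, at 276 ± 20.5 against 391 ± 27.3 (SD, n = 3).

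**Figure D4:**
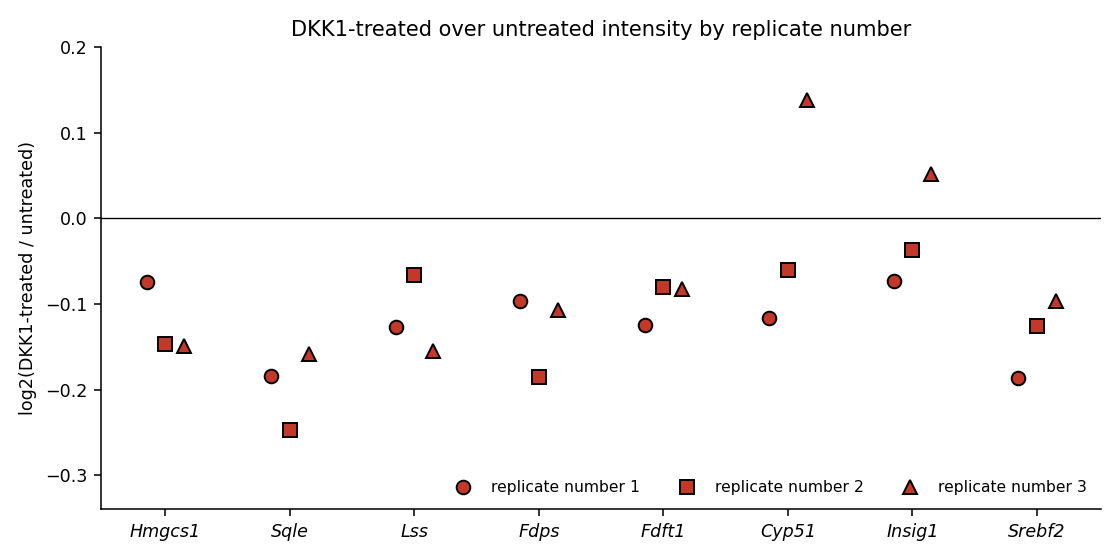
Log2 ratio of DKK1-treated over untreated intensity for arrays of the same replicate number, 3 points per gene. The 22 points below 0 reach -0.25 (Sqle, pair 2), and the 2 points above 0 are pair 3 of Cyp51 (0.14) and of Insig1 (0.05).

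DKK1-treated ESC-RPCs also had higher intensities of all 8 genes than primary RPCs, and none of their arrays overlapped with the primary arrays. This comparison uses the same 3 primary arrays as the one above, so they are not independent of each other. The differences were 1.94 ± 0.13 for Insig1, 1.85 ± 0.12 for Fdps, 1.72 ± 0.11 for Lss, 1.66 ± 0.10 for Cyp51 and 1.43 ± 0.12 for Fdft1. Those of Hmgcs1, Sqle and Srebf2 were smaller, at 0.73 ± 0.08, 0.68 ± 0.12 and 0.52 ± 0.20. The median was 1.54, and that of all genes -0.00775. Such groups, not overlapping and higher in ESC-RPCs, made up 29% of all genes. In limma 8 of the 8 were called higher at an adjusted p below 0.05, beside 26% of all genes called higher and 52.8% called in either direction. For Srebf2 the separation rests on a narrow gap, 1085.6 on the lowest treated array against 1084 on primary replicate 2. Its call was lost without any 1 of the 3 DKK1-treated arrays, at 0.49 to 0.54, and without primary replicate 1 (0.53) or 3 (0.27). One dim probe set of Lss, 1420014_at, was above the percentile on 5 of 9 arrays, overlapped between these groups and was not called on its own. The other 17 kept probe sets did not overlap, beside 27.5% of all kept probe sets of 1 gene.

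The median coefficient of variation of the 8 genes was lowest among the untreated arrays, though Hmgcs1, Sqle and Fdps varied less after DKK1. That median was 2.75% in untreated cells, 4.83% after DKK1 and 20.3% in primary cells, against 8.48%, 9.03% and 15.3% for all genes. Primary replicate 1 was the highest primary array for 7 of the 8, and replicate 3 was the lowest for 7 of the 8. By group means the order was untreated, then DKK1-treated, then primary for each of the 8 genes. This order restates the differences given above, and the share of all genes with it is not given here. The ESC-RPC groups overlapped for Fdft1, Cyp51 and Insig1. The 95% interval of the difference between untreated and DKK1-treated cells included 0 for every gene without the pairing and for 2 of the 8 with it. The interval between DKK1-treated and primary cells included 0 for none. Without the pairing, such an interval excludes 0 where limma's unadjusted p is below 0.05. That held for 7777 of all 13320 genes between DKK1-treated and primary cells, and for 308 between DKK1-treated and untreated cells. The genes were picked with these comparisons known, so nothing is read from these counts.

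Other genes of the pathway were taken from 8 lists written from textbook function, of which 71 of 83 listed genes were measured. Between untreated ESC-RPCs and primary RPCs 37 of the 71 were called higher and 15 lower by limma after Benjamini-Hochberg adjustment over all 13320 genes, of which 26.1% were called higher and 26.9% lower. Their median difference was 0.46, or 0.34 with 3 genes that lay below the percentile in a group set at their bound. Against primary cells the DKK1-treated cells gave 37 higher and 17 lower, beside 26% and 26.8% of all genes. Between DKK1-treated and untreated cells 0 of the 71 were called by limma, 1 reached an unadjusted p below 0.05, and 28 means were higher and 43 lower. The lists were written with results of these comparisons known.

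**Figure D5:**
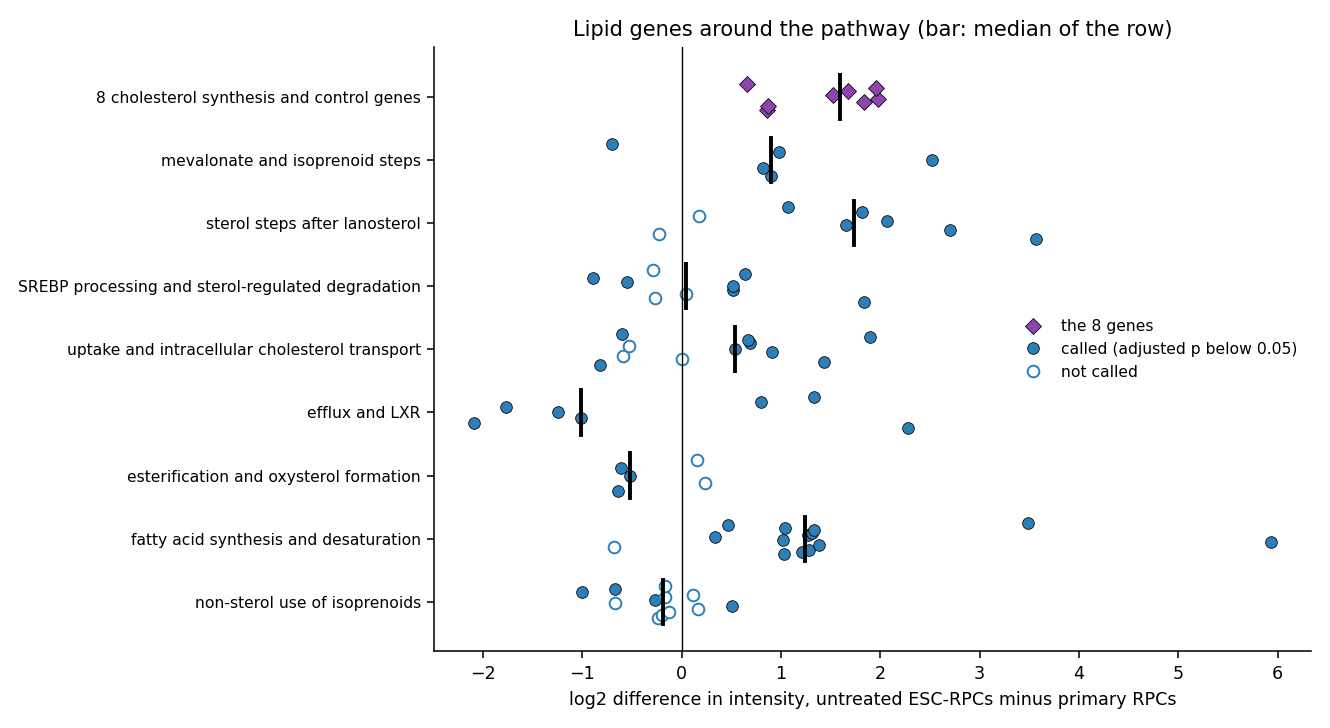
Log2 difference, untreated ESC-RPCs minus primary RPCs, for the 8 genes (diamonds) and for 71 other lipid genes in 8 lists (circles, filled where limma called the gene), with a bar at each median. The medians of the lists of sterol steps after lanosterol (1.74) and fatty acid synthesis (1.24) lie to the right of 0. Those of efflux and LXR (-1.02, or -0.72 with 2 genes at their bound) and of esterification and oxysterol formation (-0.52) lie to the left. In the efflux and LXR list 3 of 7 genes were higher and 4 lower. The esterification and oxysterol list held no esterifying enzyme among its measured genes.

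In the mevalonate and isoprenoid steps, 4 of 5 genes rose in untreated ESC-RPCs over primary RPCs and 1 fell. In this and the following list counts, genes rose or were higher, and fell or were lower, only where limma called them. Mvd, the decarboxylase that forms isopentenyl diphosphate, rose by 2.52 ± 0.25, from 297 ± 137 to 1598 ± 121 (limma, adjusted p = 1.56e-05). Pmvk, phosphomevalonate kinase, rose by 0.82 ± 0.11 (adjusted p = 0.000125). Idi1, the isomerase of isopentenyl diphosphate, measured 5793 ± 356 against 3129 ± 1265 (limma, adjusted p = 0.00685), and its difference of 0.98 was 0.61 without primary replicate 3. Ggps1, which draws farnesyl diphosphate toward geranylgeranyl groups and away from sterols, was the gene that fell, from 950.1 ± 90.7 to 582 ± 34.1 (limma, adjusted p = 0.000325). As the mean of its probe sets the difference was -0.44, against -0.70, and not all of them were called on their own.

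Beyond lanosterol, 6 of 8 genes rose and 0 fell, with a median of 1.74. Tm7sf2, a sterol reductase, rose by 3.57 ± 0.12, from 151 ± 22.4 to 1777 ± 71.9 (limma, adjusted p = 8.72e-09). Msmo1, which oxidises the methyl groups of sterols, rose by 2.70 ± 0.22, from 1697 ± 742 to 10405 ± 337 (adjusted p = 3.93e-06). Nsdhl, which acts beside it, rose by 1.66 ± 0.09, and Dhcr7, the reductase of the last step in one branch, by 1.07 ± 0.18. Lbr and Ebp, named here as the 2 exceptions, measured -0.22 ± 0.11 and 0.17 ± 0.13.

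Among genes that process SREBPs or degrade proteins in response to sterols, 4 of 9 rose and 2 fell. Srebf1, which encodes the SREBP forms that act more on fatty acid genes, rose by 1.83 ± 0.13, from 995 ± 183 to 3504 ± 172 (limma, adjusted p = 1.1e-06). The difference of Srebf2 was 0.66 ± 0.20. Insig2, the second INSIG, measured 855 ± 52.7 against 830.3 ± 39.2, a difference of 0.04 ± 0.09, beside 1.96 ± 0.13 for Insig1. Scap measured 1112 ± 70.0 against 1349 ± 229 and was not called (adjusted p = 0.111). Erlin2, which helps sterol-dependent degradation, rose by 0.64 ± 0.11. Erlin1 fell by 0.89 on the log2 scale, from 1273 ± 398 to 666 ± 21.7 (limma, adjusted p = 0.00253). Its call was kept under 16 of 16 alternatives. Rnf139, a ubiquitin ligase of the endoplasmic reticulum, fell by 0.55 on the log2 scale, a call that was lost with other choices of probe set.

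In uptake and transport inside the cell, 6 of 11 genes rose and 2 fell, with a median of 0.54. Stard4, a carrier of cholesterol between membranes, rose by 1.90 ± 0.14, from 437 ± 77.4 to 1616 ± 137 (limma, adjusted p = 1.57e-06). The endocytic receptor Lrp1 rose by 1.44 ± 0.16 and Npc2, which hands cholesterol out of lysosomes, by 0.54 ± 0.08. The Npc2 difference was 0.84 as the mean of its probe sets, not all of which were called on their own. The 2 that fell were the receptor Vldlr, from 3058 ± 789 to 1690 ± 62.4 (limma, adjusted p = 0.00104), and Osbp, by 0.60 on the log2 scale. Not all Vldlr probe sets were called on their own. The receptors Lrp8 and Scarb1 measured 0.002 ± 0.16 and -0.59 ± 0.25 and were not called. Genes of efflux and of the sterol-sensing LXR receptors were split, with 3 of 7 higher and 4 lower and a median of -1.02, or -0.72 with 2 genes at their bound. Abcg1, an exporter of cholesterol to lipoproteins, fell from 1020 ± 416 to 230.2 ± 41.7 (limma, adjusted p = 5.94e-05). Mylip, which marks lipoprotein receptors for degradation, fell from 1340 ± 393 to 382 ± 21.3 (adjusted p = 3.32e-05), and Abcg4 fell by 1.02 on the log2 scale. The Abcg4 difference was -0.57 as the mean of its probe sets, not all of which were called on their own. Abca1, also an exporter, went the other way, at 3919, 3513 and 2858 in untreated against 272, 706 and 1792 in primary cells, a difference of 2.28 ± 0.50 (adjusted p = 0.00333). Apoe, the carrier protein of glial lipoproteins, rose by 0.80 ± 0.25 (adjusted p = 0.0221), a call lost without primary replicate 1 (0.47) or untreated replicate 1. In the list of esterification and oxysterol formation, 0 of 5 rose and 3 fell. Nceh1 fell by 0.65, Cyp7b1 by 0.61 and Cyp46a1 by 0.52 on the log2 scale, the last kept under 9 of 16 alternatives. None of the 5 measured genes esterifies cholesterol, and Nceh1 encodes an enzyme that splits cholesterol esters. The counts therefore do not describe esterification. The Cyp46a1 call was lost without primary replicate 2 (-0.31), without untreated replicate 1 or 3, with quantile normalisation or arrays set to one median, without the filter and in a fit of only 6 arrays.

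Fatty acid synthesis, which SREBP proteins also drive, had 13 of 14 genes called higher and 0 called lower by limma, with a median of 1.24. Acacb, not called, had a lower mean, at 56.7 ± 19.8 in untreated and 100 ± 59.0 in primary cells. Scd1, the desaturase that makes oleate, rose by 5.94 ± 0.16, from 164 ± 48.4 to 9783 ± 274 (limma, adjusted p = 2.37e-09). Fasn, fatty acid synthase, rose by 1.38 ± 0.08, from 2270 ± 241 to 5901 ± 48.2, and Scd2 by 1.02 ± 0.06 (1.71 as the mean of its probe sets). After DKK1, 12 of these 14 means were lower than in untreated cells with 0 called. Of 12 genes that use isoprenoids outside sterols, 1 rose and 3 fell, with a median of -0.18. The farnesyltransferase subunit Fnta rose by 0.51 ± 0.06, and Rce1 and Icmt, which finish prenylated proteins, fell by 1.01 and 0.67 on the log2 scale.

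The genes outside the set whose log2 values followed the mean profile of the 8 most closely over the 9 arrays were Elovl6, Fam91a1, Mcts2, Txndc17 and Slc25a5, with Pearson correlations of 0.995 to 0.996. All 5 had lower means in primary than in ESC-RPC groups, which follows from how they were picked, since the profile is itself low on the primary arrays. Elovl6, a fatty acid elongase, measured 2653 ± 70.6 after DKK1, 2785 ± 54.2 without and 1156 ± 152 in primary cells. After each group's mean was subtracted, the closest were Dnaja1, Ipo7, Masp1, Serpinf1 and Cldnd1, at 0.983 to 0.991, a ranking in which the wide spread of the 3 primary arrays weighs most. Masp1 measured 11.4 ± 10.3 in primary cells, below the arrays' 40th percentiles (44.7 to 52.9), where values carry little signal over background.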

How the data were processed

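Biotin-labelled cRNA from 9 samples was hybridised to 3-prime expression arrays. The deposited table holds 1 linear intensity value per probe set and array, made by the authors with MAS5 per the submitters' processing notes, with version and settings not given in the sources used here. The 2% trimmed mean was 500 on each array, and values ran from 1 to 33649. Arrays give no read depth; their number limits the precision (median SE 0.15).

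Log2 was taken without further normalisation. Control probe sets (64) and probe sets with several genes (932) or none (9160) were left out. Probe sets were kept that exceeded the 40th percentile of their array in 3 or more of 9 arrays, and the brightest kept one stood for a gene, giving 13320 genes. All 9 arrays were fitted with limma 3.58.1 in R 4.3.3 (1 mean per group, intensity trend), with Benjamini-Hochberg adjustment over all genes and calls at 0.05. For a group with 3 of 3 arrays under the percentile, that percentile gave a bound. Pathway genes were named by rule: up to 3 per list with the smallest adjusted p between untreated and primary cells, plus Mvd, Idi1, Dhcr7, Srebf1, Scap, Insig2, Stard4, Abca1, Abcg1, Apoe, Fasn and Scd1. Lbr, Ebp, Erlin1, Vldlr, Osbp, Lrp8, Scarb1 and Acacb were named in addition. All 71 measured genes of the lists entered the counts, and the other listed genes were not analysed here. Members, lists and rule were chosen with earlier results of these data known.

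Deviations from group means of same-numbered DKK1-treated and untreated arrays correlated at 0.123, 0.195 and 0.318 across genes, and of different numbers at -0.234 to 0.0681, so these numbers were taken as pairs. This comes from the values and not from the labels. Primary arrays were not paired (-0.0433 to -2.36e-06 with same-numbered arrays). Promoter windows came from RefSeq (GRCm38.p6); the files name no genome build.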

Additional observations from a re-analysis of the deposited data

How the results depend on the processing

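Of the 8 genes, 3 of 136 alternative values changed sign between DKK1-treated and untreated cells, the highest at 0.03, all 3 with 1 DKK1-treated array left out, and 0 of 128 did so in either comparison with primary cells. The median of the 8 ranged from -0.14 to -0.09 after DKK1, from 1.34 to 1.72 for untreated over primary and from 1.21 to 1.66 for DKK1-treated over primary cells. With each kept probe set tested on its own, the latter medians were 1.34 and 1.21, further from 1.60 and 1.54 than 1 replicate SD (0.159 and 0.160), since a gene then counts once for each of its probe sets. The replicate block on the 6 ESC-RPC arrays called 1 of the 8 genes (Sqle) against 0, and on 9 arrays 0; it changed no other call of the 8 genes except that of Srebf2 between DKK1-treated and primary cells, which the 9-array block, no filter, no intensity trend and a fit of only 6 arrays also ended. Pathway genes called numbered 47 to 54 for untreated and 50 to 55 for DKK1-treated against primary cells. None was called between DKK1-treated and untreated cells under any setting (1 at an unadjusted p below 0.05 in limma's fit of 9 arrays). Scap, called lower only in DKK1-treated against primary cells, kept that call under 8 of 16 alternatives. Probe sets near the 40th percentile carry little signal over background, which limits the dim probe sets of Lss, Fdft1 and Fdps.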
